A study of Mus musculus with 48 samples.

Results

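The 10 genes described here were grouped as sphingolipid synthesis genes of mouse liver: Sptlc1, Sptlc2, Sptlc3, Serinc5, Cers2, Cers6, Degs1, Sgms1, Ugcg and Smpd3. All but Serinc5, which encodes a membrane protein and not an enzyme of the pathway, make sphingolipids or remodel them. The 10 genes were chosen by name and found by Ensembl identifier among the 55416 genes of the count tables. Of the 10, 9 passed the filter on low counts, as did 15711 genes in all, and Sptlc3 did not. The study asked how damaging alleles of Nr1h3, which encodes the nuclear receptor LXRα, change the liver. Liver RNA came from C57Bl/6J mice given a western diet with 0.2% cholesterol for 8 weeks, from 8 to 16 weeks of age, in all groups. In the knock-in study (DN) the mice carried the dominant negative substitution W441R on no allele (DN:WT), 1 allele (DN:HET) or 2 alleles (DN:HOM). In the knockout study (KO) they carried 2 intact Nr1h3 alleles (KO:WT), 1 knockout allele (KO:HET) or 2 (KO:HOM). Each of the 6 groups had 8 livers, and each liver came from a separate mouse. Both are germline alleles and neither is limited to hepatocytes, and the KO line was made on a mixed background and backcrossed.

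Sphingolipids are built on a long-chain base. Serine palmitoyltransferase, a complex of SPTLC1 with SPTLC2 or SPTLC3, joins serine to a fatty acyl-CoA in the step that commits serine to the pathway. Ceramide synthases (CERS) attach a second fatty acid, each with its own preference for chain length, and the desaturase DEGS1 turns dihydroceramide into ceramide. Ceramide is then converted to sphingomyelin by sphingomyelin synthases such as SGMS1, or to glucosylceramide by UGCG, and sphingomyelinases such as SMPD3 return sphingomyelin to ceramide. The liver supplies sphingolipids to plasma lipoproteins and to bile, and ceramide content is known to bear on insulin response and on hepatocyte survival.

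The livers labelled DN:WT animal 10 and DN:HOM animal 12 stand against their labels. Over 5260 other genes that passed the test and separated the remaining livers of both groups without overlap, animal 10 lay nearer to the DN:HOM mean for 5079 (96.6%), and animal 12 lay nearer to the DN:WT mean for 5039 (95.8%). Both livers are also absent from the per-liver source data of the study. Results are therefore given for the other 46 livers, with the values of all 48 livers as labelled beside them. Reads on genes ranged from 5332897 to 16961379 per liver (median 15879971), and only KO:HET animal 3 and KO:HOM animal 17 had fewer than 10000000.

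Nr1h3 itself was measured at 93.6 ± 8.82 CPM (counts scaled to a common library size; SD, n = 8) in KO:WT, 59.2 ± 5.63 (n = 8) in KO:HET and 27 ± 1.99 (n = 8) in KO:HOM livers. The 3 KO groups did not overlap, and some Nr1h3 reads remained in every KO:HOM liver. In the knock-in study the level was 91.8 ± 5.04 CPM (n = 7) in DN:WT and 72.8 ± 3.56 (n = 7) in DN:HOM livers, which does not check the label because the allele differs by a substitution.

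The stretches of DNA before the start sites of the 3 genes that rose most in DN:HOM livers are shown to let them be compared. Each is the 300 bases upstream of the Ensembl canonical transcript start in GRCm39, read 5′ to 3′ on the gene's strand, with the GC box GGGCGG in capitals. Serinc5 lies at chr13:92747269-92747568 on the plus strand, Smpd3 at chr8:107064671-107064970 on the minus strand and Sptlc2 at chr12:87435268-87435567 on the minus strand.
Serinc5: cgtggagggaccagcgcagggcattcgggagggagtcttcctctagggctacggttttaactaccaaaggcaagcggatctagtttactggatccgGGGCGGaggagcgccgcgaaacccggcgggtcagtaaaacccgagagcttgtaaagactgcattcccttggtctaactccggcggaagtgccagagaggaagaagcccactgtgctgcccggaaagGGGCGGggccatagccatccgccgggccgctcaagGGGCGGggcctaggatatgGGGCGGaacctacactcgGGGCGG
Smpd3: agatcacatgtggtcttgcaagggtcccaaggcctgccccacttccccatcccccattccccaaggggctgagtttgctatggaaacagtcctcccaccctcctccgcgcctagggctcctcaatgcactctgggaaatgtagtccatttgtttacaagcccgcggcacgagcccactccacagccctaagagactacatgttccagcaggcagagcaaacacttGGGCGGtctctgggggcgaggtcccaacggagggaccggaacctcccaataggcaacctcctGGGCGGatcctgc
Sptlc2: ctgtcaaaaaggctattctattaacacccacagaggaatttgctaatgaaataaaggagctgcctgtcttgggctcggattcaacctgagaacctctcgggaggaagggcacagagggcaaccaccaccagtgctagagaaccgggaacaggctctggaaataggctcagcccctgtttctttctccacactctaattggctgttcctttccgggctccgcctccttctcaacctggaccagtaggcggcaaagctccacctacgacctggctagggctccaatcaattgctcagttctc
The GC box was present 5 times before Serinc5, 2 times before Smpd3 and not before Sptlc2. Among the 10 genes, 5 held it (Cers2, Degs1, Serinc5, Smpd3 and Sptlc1), against 37.6% of 21770 protein-coding promoters of the same length. The hexamer AGGTCA, to which many nuclear receptors bind, was present before Cers6 and before none of the other 9 genes, against 15.9% of all promoters. The sterol regulatory element TCACNCCAC was in none of the 10 against 1.25%. These motifs were searched on both strands and do not contain one another. The E-box CACGTG was present before Cers2 only among the 10, against 6.95% of all promoters. These matches describe letters in a fixed window, and they are not measured binding sites.

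In wild-type livers the genes differed widely in level. Per kilobase of exon, Cers2, the ceramide synthase of very-long-chain acyl groups, was highest at 82.9 ± 9.46 CPM per kb (SD, n = 7) in DN:WT and 81.3 ± 6.44 (n = 8) in KO:WT. Degs1 was next at 14.3 ± 1.51 CPM per kb in DN:WT, and its range of 1 SD did not meet that of Cers2. Serinc5 (4.66 ± 0.357 CPM per kb) and Sptlc1 (4.39 ± 0.285) followed, and these neighbours overlapped within 1 SD. Ugcg (3.43 ± 0.468), Smpd3 (2.63 ± 0.892), Sptlc2 (2.31 ± 0.162) and Cers6 (1.79 ± 0.492) formed a run in which each neighbour overlapped the next within 1 SD. Sgms1 was lowest of the genes tested at 1.02 ± 0.187 CPM per kb in DN:WT. In KO:WT livers the first 5 places were the same, and Cers6 (2.71 ± 0.786 CPM per kb) stood above Sptlc2 (1.96 ± 0.325) and Smpd3 (1.84 ± 1.32), again with overlapping neighbours. The order per kb depends on the exon length, which merges the exons of all annotated transcripts and was longest for Sgms1 (18745 bases). In CPM without the length, Sgms1 in DN:WT livers (19.2 ± 3.51) stood above Cers6 (16.8 ± 4.6) and Smpd3 (15.2 ± 5.15), with overlap within 1 SD. The levels were compared between the studies only side by side, because genotype group and study cannot be told apart.

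**Figure D1:**
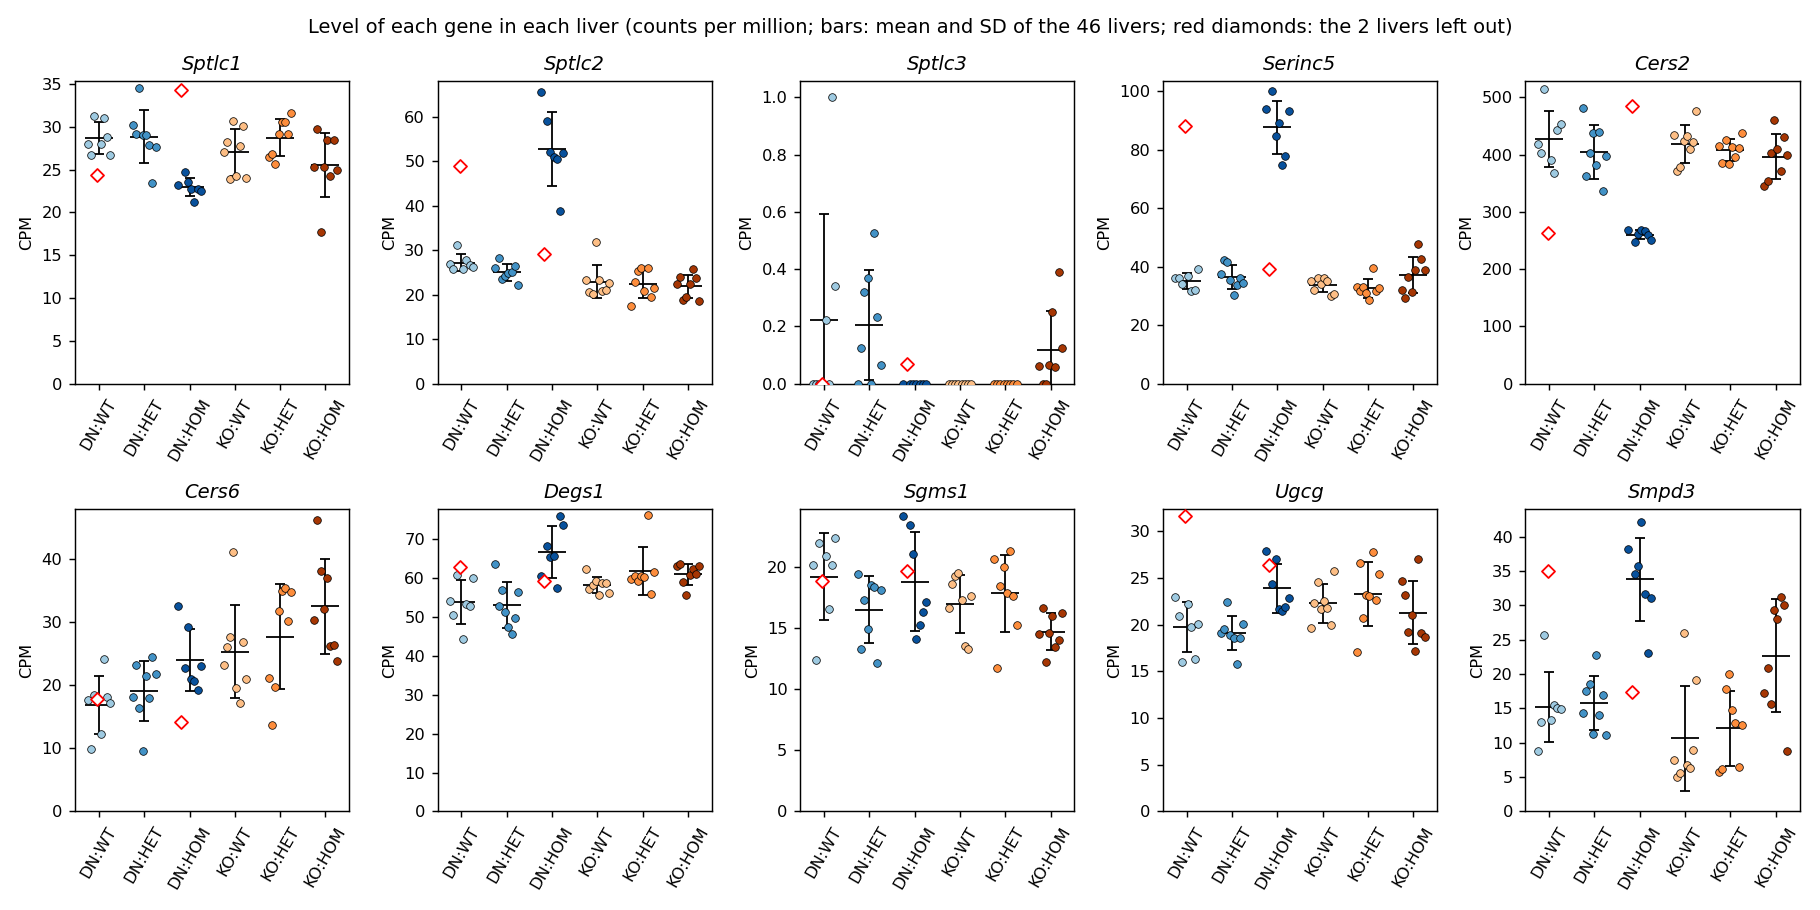
Level of each of the 10 genes in every liver, in CPM on a linear axis starting at 0, by genotype group. Points are livers, bars give the mean and SD of the 46 livers, and red diamonds are DN:WT animal 10 and DN:HOM animal 12. Serinc5 in the 7 DN:HOM livers lies between 74.8 and 100 CPM, above every other group.

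In DN:HOM livers most of the 9 genes tested passed the test, as did most genes of the liver. Of the 9 genes, 8 passed in DN:HOM against DN:WT livers (edgeR quasi-likelihood test, Benjamini-Hochberg adjusted p under 0.05), 6 higher and 2 lower. The background was high, since 59.1% of all 15711 genes passed in this comparison, 4579 higher (29.1%) and 4713 lower (30%). For 4 of the 9 genes the groups did not overlap, Serinc5 and Sptlc2 higher and Sptlc1 and Cers2 lower, beside 33.5% of all genes. The median log2 fold change was 0.32 over the 9 genes and -0.01 over all genes, and the median size of the change without its sign was 0.53 against 0.42. With all 48 livers, 6 of 9 passed, 4 higher and 2 lower, beside 48% of all genes (23% higher and 25% lower), and no gene of the 9 had separate groups, beside 0.115% of all genes. Bulk RNA cannot tell apart fewer cells of a type and less RNA per cell, and this holds for every change given here.

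Serinc5, a member of the serine incorporator family of membrane proteins, rose most. Its level was 31.8 CPM in the lowest, 36.1 in the median and 39.3 in the highest of 7 DN:WT livers. In the 7 DN:HOM livers the lowest was 74.8, the median 89.2 and the highest 100 CPM. The lowest DN:HOM liver thus stood well above the highest DN:WT liver. This was a 2.51-fold rise, 1.33 on the log2 scale (SE 0.09, 95% interval 1.16 to 1.50), with an edgeR adjusted p of 8.2e-17. With all 48 livers it was 0.96 (SE 0.15, edgeR adjusted p = 2.5e-05). The liver labelled DN:WT animal 10 was at 88.1 CPM and the one labelled DN:HOM animal 12 at 39.4 CPM, each within or next to the range of the opposite group.

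Serine palmitoyltransferase changed in its subunits in opposite directions. Sptlc2, the catalytic subunit, was at 25.7 (lowest), 26.6 (median) and 31.2 CPM (highest) in DN:WT livers. It was at 38.8, 51.8 and 65.6 CPM in DN:HOM livers. The groups did not overlap, and the spread among DN:HOM livers (SD 8.28) was wider than among DN:WT livers (SD 1.9). Sptlc2 rose by 0.97 on the log2 scale (SE 0.10, edgeR adjusted p = 1.1e-11), or 1.96-fold, and by 0.73 (SE 0.12, edgeR adjusted p = 2.9e-05) with all 48 livers. Sptlc1, the partner subunit without which the enzyme is not formed, was at 26.7 (lowest), 28 (median) and 31.3 CPM (highest) in DN:WT livers and at 21.2, 22.7 and 24.7 CPM in DN:HOM livers. All 7 DN:HOM livers lay below all 7 DN:WT livers. The log2 fold change of Sptlc1 was -0.31 (SE 0.08, edgeR adjusted p = 5.7e-04), and -0.21 (SE 0.08, edgeR adjusted p = 0.037) with all 48 livers. Its direction depended on the scaling, for with library size alone, which shifted the median of all genes by 0.42 in this comparison, it was 0.13.

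Sptlc3, the alternative catalytic subunit, was barely detected. Its reads came to 62 over all 48 livers, and 32 livers held none. The most in a liver was 14 reads, or 1 CPM, in a DN:WT liver. No read fell in any of the 8 KO:WT or 8 KO:HET livers, while 15 reads were spread over 6 of 8 KO:HOM livers. In the knock-in study 22 reads fell in 3 of 8 DN:WT, 24 in 6 of 8 DN:HET and 1 in 1 of 8 DN:HOM livers, the last in animal 12. A count of 0 allows up to 3 reads, which is between 0.136 and 0.604 CPM over the 48 livers. The limit covers counting error only. Sptlc3 did not pass the filter on low counts and was not tested with it, while without the filter it passed with edgeR in DN:HOM livers (lower) and in KO:HOM livers (higher). Among the 46 livers no read fell in DN:HOM or KO:WT.

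The ceramide synthases also parted. Cers2 fell from 367 (lowest), 418 (median) and 515 CPM (highest) in DN:WT livers to 247, 262 and 269 CPM in DN:HOM livers. Cers2 shares 1309 exon bases with Setdb1 on the opposite strand, and reads were counted by strand. The groups did not overlap, and the DN:HOM livers varied by 3.28% (coefficient of variation) against 11.4% in DN:WT. Cers2 changed by -0.70 on the log2 scale (SE 0.07, edgeR adjusted p = 2.3e-11), a 1.63-fold fall, and -0.50 (SE 0.10, edgeR adjusted p = 2.6e-04) with all 48 livers. With library size alone, which shifted the median of all genes by 0.42, the Cers2 value was -0.27 (edgeR adjusted p = 9.1e-05). Cers6, which prefers the shorter palmitoyl chain, was at 9.9 (lowest), 17.6 (median) and 24.2 CPM (highest) in DN:WT and at 19.3, 22.7 and 32.5 CPM in DN:HOM livers. These ranges overlapped, and Cers6 had a larger coefficient of variation than Cers2 in DN:WT, 27.4% against 11.4%. The log2 fold change of Cers6 was 0.53 (SE 0.20, edgeR adjusted p = 0.018), and with all 48 livers it was 0.43 and no longer passed (edgeR adjusted p = 0.056). With library size alone it was 0.97.

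Degs1, which makes ceramide from dihydroceramide, was at 44.2 (lowest), 53.3 (median) and 60.8 CPM (highest) in DN:WT livers. It was at 57.3, 65.7 and 75.9 CPM in DN:HOM livers, with some overlap. The rise was 0.32 on the log2 scale (SE 0.07, edgeR adjusted p = 8.9e-05), or 0.26 with all 48 livers (edgeR adjusted p = 0.0014). The change was small, 1.25-fold, and passed with and without the 2 livers. With library size alone, which shifted the median of all genes by 0.42, the Degs1 value was 0.75 (edgeR adjusted p = 4.7e-12).

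At the branch from ceramide to complex sphingolipids, Ugcg rose slightly and Sgms1 gave no call in the main test. Ugcg, which makes glucosylceramide, was at 16 (lowest), 20.1 (median) and 22.9 CPM (highest) in DN:WT and at 21.4, 22.8 and 27.9 CPM in DN:HOM livers. Its log2 fold change of 0.29 (SE 0.10, edgeR adjusted p = 0.011) passed the test, and that of 0.19 with all 48 livers did not (edgeR adjusted p = 0.13). With library size alone the Ugcg value was 0.72 (edgeR adjusted p = 2.7e-07). Sgms1, a sphingomyelin synthase of the Golgi, was at 12.4 (lowest), 20.1 (median) and 22.3 CPM (highest) in DN:WT and at 14.1, 17.1 and 24.1 CPM in DN:HOM livers. Its log2 fold change was -0.02 with a 95% interval of -0.27 to 0.23, which leaves room for changes of that size in either direction. Over the alternatives its value ran from -0.03 to 0.42, the last with library size alone, where it passed (edgeR adjusted p = 0.0038).

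Smpd3, the neutral sphingomyelinase that turns sphingomyelin into ceramide, rose in DN:HOM livers with a wide spread. The gene was at 8.83 (lowest), 14.9 (median) and 25.7 CPM (highest) in DN:WT livers and at 23, 34.5 and 42.1 CPM in DN:HOM livers. A single DN:WT liver reached into the DN:HOM range. Its rise was 1.17 on the log2 scale (SE 0.29, 95% interval 0.59 to 1.74, edgeR adjusted p = 7.3e-04), or 2.24-fold, and 0.84 (SE 0.29, edgeR adjusted p = 0.017) with all 48 livers.

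In the knockout study Smpd3 was the only gene of the 9 to pass. In KO:HOM against KO:WT livers 1 of the 9 genes passed the test, beside 19.4% of all 15711 genes (12.9% with all 48 livers, again 1 of 9), and none of the 9 had separate groups, beside 2.55%. Smpd3 was at 4.98 (lowest), 7.13 (median) and 25.9 CPM (highest) in KO:WT livers. It was at 8.77, 24.4 and 31.2 CPM in KO:HOM livers. The overlap came from KO:WT animals 23 (25.9 CPM) and 34 (19.1 CPM), while the other KO:WT livers stayed at or below 8.96 CPM, and from KO:HOM animal 30 (8.77 CPM). The log2 fold change of Smpd3 was 1.09 (SE 0.28, 95% interval 0.53 to 1.64, edgeR adjusted p = 0.0044), or 2.12-fold, and 1.09 (edgeR adjusted p = 0.011) with all 48 livers.

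The remaining genes of the knockout study did not pass the test. Serinc5 was at 29.9 (lowest), 34.6 (median) and 36.3 CPM (highest) in KO:WT and at 29.4, 37.7 and 47.8 CPM in KO:HOM livers, with a log2 fold change of 0.14 (95% interval -0.02 to 0.29, edgeR adjusted p = 0.24). For Sptlc2 the log2 fold change was -0.07 (95% interval -0.25 to 0.11), for Sptlc1 -0.08 (-0.22 to 0.06) and for Cers2 -0.08 (-0.21 to 0.04). Cers6 had the second highest value, 0.35 (95% interval -0.01 to 0.71, edgeR adjusted p = 0.18), from a median of 24.6 CPM in KO:WT to 31.2 in KO:HOM livers with overlapping ranges. Cers6 lies on chromosome 2, 22.3 Mb from Nr1h3. Within 5 Mb of Cers6, 11 of 57 genes tested (19.3%) passed in this comparison, beside 10 of 53 (18.9%) around Nr1h3 and 19.4% of all genes. Linkage of Cers6 to the knockout allele was not tested. Degs1 (0.06), Ugcg (-0.07) and Sgms1 (-0.21) did not pass, and the interval for Sgms1 ran from -0.45 to 0.03.

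**Figure D2:**
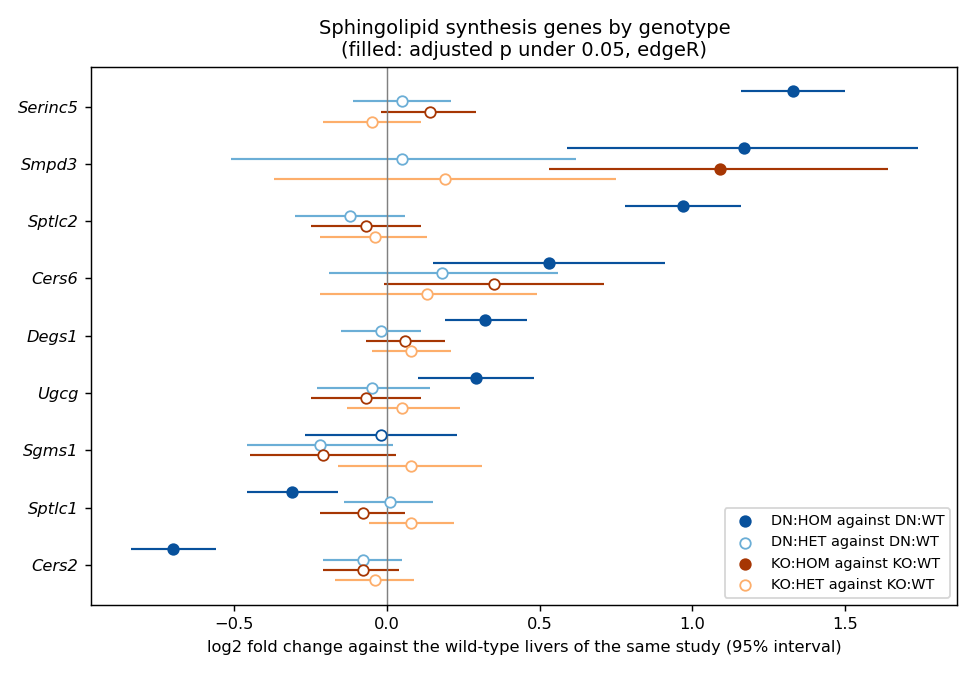
Log2 fold change of the 9 genes tested against the wild-type livers of the same study, with 95% intervals, for the 46 livers. Filled points passed an edgeR adjusted p of 0.05; DN:HOM has 8 filled points, KO:HOM has Smpd3 alone, and the HET comparisons have none.

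Heterozygous livers of both studies gave no call among the 9 genes. In DN:HET against DN:WT livers 0 of 9 passed with edgeR, beside 2.3% of all genes (0.25% with all 48 livers, again 0 of 9), and in the 46 livers 0 of 9 were under an unadjusted p of 0.05, with DESeq2 as with edgeR. Sptlc2 was under it with all 48 livers, at -0.26 on the log2 scale (95% interval -0.50 to -0.02, edgeR unadjusted p = 0.042, adjusted p = 0.71). Their log2 fold changes ran from -0.22 (Sgms1) to 0.18 (Cers6). In KO:HET against KO:WT livers 0 of 9 passed, beside 0.0191% of all genes (0.0192% with all 48 livers, where 0 of 9 passed too), and in the 46 livers again 0 of 9 were under an unadjusted p of 0.05 by either tool. These comparisons share their wild-type livers with the homozygous ones. For Serinc5 the DN:HET livers were at 30.4 (lowest), 35.8 (median) and 42.2 CPM (highest), and the log2 fold change was 0.05 (95% interval -0.11 to 0.21). For Sptlc2 it was -0.12 (-0.30 to 0.06), for Cers2 -0.08 (-0.21 to 0.05) and for Smpd3 0.05 (-0.51 to 0.62). The interval of Smpd3 is too wide to set apart no change from a moderate one. With all 48 livers the DN:HET values of Serinc5 and Smpd3 were -0.20 and -0.16, neither passing.

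The effect of homozygosity was compared between the studies as the DN:HOM effect minus the KO:HOM effect. Allele and study go together, so this difference cannot tell them apart. Of the 9 genes 5 passed, beside 34.7% of all genes, and 2 of 9 with all 48 livers, beside 10.5%. Serinc5 differed by 1.19 on the log2 scale (SE 0.12, edgeR adjusted p = 1.2e-10; 0.82 and 0.013 with 48 livers) and Sptlc2 by 1.04 (SE 0.13, edgeR adjusted p = 3.7e-08; 0.80 and 0.0045 with 48 livers). For both the DN:HOM effect was the higher, with and without the 2 livers, and neither passed in KO:HOM livers. Cers2 differed by -0.62 (SE 0.10, edgeR adjusted p = 2.6e-06), Ugcg by 0.35 (SE 0.13, edgeR adjusted p = 0.036) and Degs1 by 0.26 (SE 0.09, edgeR adjusted p = 0.027). With all 48 livers these were -0.42, 0.25 and 0.19 and did not pass (edgeR adjusted p = 0.058, 0.26 and 0.16). Sptlc1 differed by -0.22 (edgeR adjusted p = 0.089), Cers6 by 0.18 (edgeR adjusted p = 0.64) and Sgms1 by 0.19 (edgeR adjusted p = 0.43). For Smpd3 the difference was 0.08 with a 95% interval of -0.72 to 0.87, so the rises of the knock-in and the knockout were near each other in size but could differ by as much as that interval.

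Ratios taken within a liver do not depend on the scaling between libraries, and they are given as descriptions. Their size depends on the exon lengths of the genes, which do not alter the change between groups. The ratio of Sptlc2 to Sptlc1, each per kb, was 0.497 (lowest), 0.53 (median) and 0.553 (highest) in DN:WT livers and 0.947, 1.28 and 1.57 in DN:HOM livers. Per kb the ratio passed 1 in 6 of the 7 DN:HOM livers, and the groups did not overlap. In CPM without the exon lengths, all 7 had more Sptlc2 (lowest 38.8) than Sptlc1 (highest 24.7). Where the ratio crosses 1 thus depends on these lengths, 11746 bases for Sptlc2 and 6526 for Sptlc1. In the knockout study the medians were 0.473 in KO:WT and 0.456 in KO:HOM. The ratio of Cers6 to Cers2 per kb had a median of 0.0208 in DN:WT (0.0136 to 0.0362) and 0.0505 in DN:HOM livers (0.0411 to 0.0665), without overlap. It had a median of 0.0323 in KO:WT and 0.0436 in KO:HOM livers, with overlap. Cers2 thus remained the far more abundant transcript in every group, also in CPM without the exon lengths (a mean of 260 against 24 in DN:HOM livers). The ratio of Smpd3 to Sgms1 per kb had a median of 2.44 in DN:WT (1.43 to 3.81) and 5.53 in DN:HOM (4.58 to 9.69). Its median was 1.5 in KO:WT (0.867 to 4.31) and 4.92 in KO:HOM livers (1.76 to 7.53), with overlap. The ratio of Ugcg to Sgms1 overlapped between DN:WT (median 3.46) and DN:HOM (median 4.33). The liver labelled DN:WT animal 10 had a Sptlc2 to Sptlc1 ratio of 1.11 and the one labelled DN:HOM animal 12 of 0.473. Their Cers6 to Cers2 ratios were 0.0374 and 0.0161 and their Smpd3 to Sgms1 ratios 6.04 and 2.89, so with all 48 livers the DN:WT and DN:HOM ranges overlapped for each ratio.

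**Figure D3:**
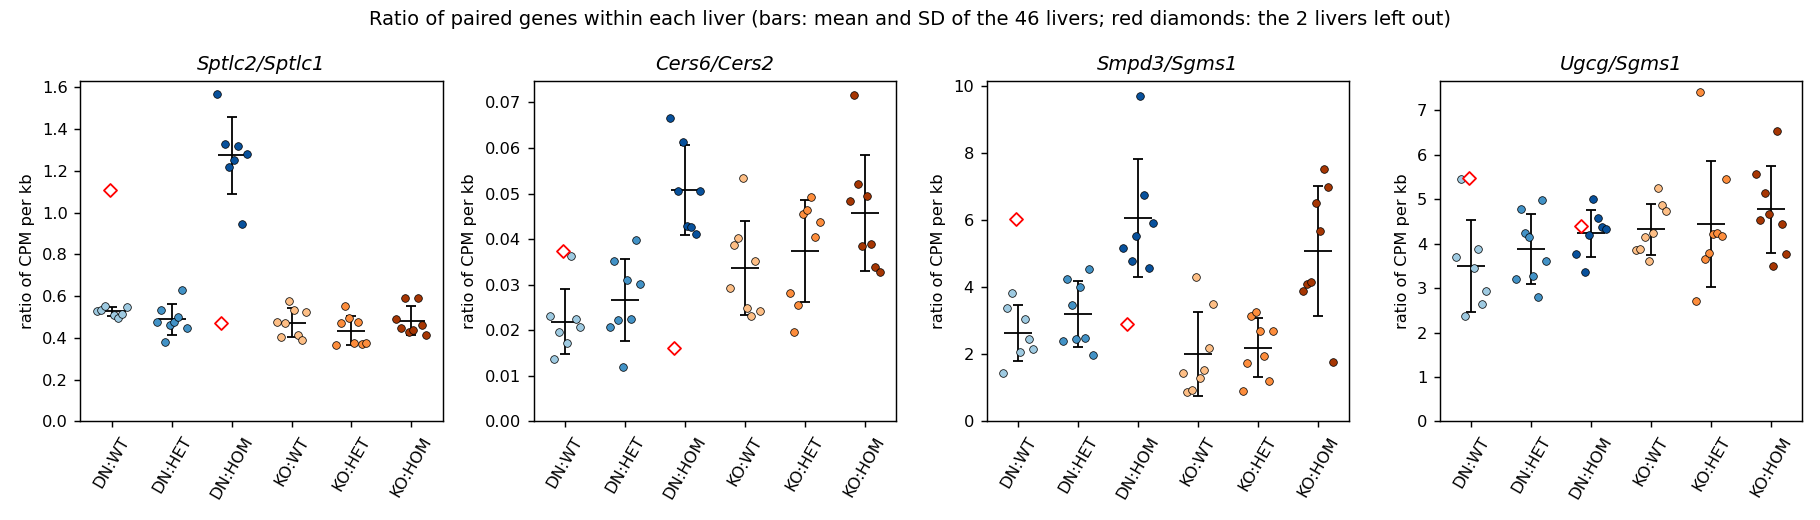
Ratio of the CPM per kb of paired genes within each liver, by group, on linear axes starting at 0. Points are livers, bars the mean and SD of the 46 livers, and red diamonds the 2 livers left out. The Sptlc2 to Sptlc1 ratio of DN:HOM livers (0.947 to 1.57) lies apart from DN:WT (0.497 to 0.553).

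Other genes of sphingolipid metabolism were examined in 5 lists holding 66 genes, of which 61 were tested. In DN:HOM against DN:WT livers 28 rose and 15 fell, beside 59.1% called among all genes. With all 48 livers 26 rose and 15 fell, beside 48%. In KO:HOM against KO:WT livers 15 rose and 3 fell, beside 19.4%, and with all 48 livers 10 and 3, beside 12.9%. The difference between the effects passed for 27 of 61 (17 higher and 10 lower in the knock-in), beside 34.7%, and for 5 of 61 with all 48 livers, beside 10.5%. In DN:HET livers 2 of 61 passed, beside 2.3% of all genes, among them Gltp at 1.08 (edgeR adjusted p = 0.037), and with all 48 livers neither did. With DESeq2 4 of 61 passed there, and 9 were under an unadjusted p of 0.05 by either tool. In KO:HET livers 0 of 61 passed with edgeR or DESeq2, beside 0.0191% of all genes with edgeR, and 3 were under an unadjusted p of 0.05 by either tool.

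The breakdown list, mostly lysosomal hydrolases, had the highest share of calls in DN:HOM livers, 11 rises and 1 fall among 15 tested genes (the same counts with all 48). This is 80% of the list, beside 59.1% of all genes (48% with all 48 livers). There were 6 rises among 15 in KO:HOM livers (4 with all 48), or 40% beside 19.4% of all genes (26.7% beside 12.9% with all 48).

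In the remaining de novo genes, 5 rose and 3 fell among 12 tested in DN:HOM livers, against 1 and 1 in KO:HOM livers, with and without the 2 livers. These shares, 66.7% and 16.7%, stand beside 59.1% and 19.4% of all genes, or 48% and 12.9% with all 48 livers. Ormdl3, whose protein restrains serine palmitoyltransferase, fell from 157 ± 14.6 CPM (n = 7) in DN:WT to 75.8 ± 8.19 CPM (n = 7) in DN:HOM livers. The log2 fold change was -1.04 (SE 0.11, edgeR adjusted p = 2.7e-11), or -0.76 with all 48 livers, and it was -0.11 in KO:HOM livers without a call. The difference between the studies passed (-0.93, edgeR adjusted p = 1.9e-06; 0.033 with 48 livers). Ormdl2, of the same family, fell in KO:HOM livers by 0.26 (edgeR adjusted p = 0.012), from 33.5 ± 3.55 to 28 ± 2.19 CPM. Degs2, a desaturase that also hydroxylates, rose in DN:HOM livers from 0.248 ± 0.16 to 1.58 ± 0.275 CPM, by 2.64 on the log2 scale (1.94 with all 48 livers). Its DN:WT level lay within the limits for a count of 0 (0.136 to 0.604 CPM over the 48 livers), so the size of the rise is not fixed.

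Among 11 glycosphingolipid genes tested, 5 rose and 3 fell in DN:HOM and 3 rose and 1 fell in KO:HOM livers (2 and 1 with all 48), or 72.7% and 36.4% beside 59.1% and 19.4% of all genes (72.7% and 27.3% beside 48% and 12.9% with all 48). Ugt8a, which makes galactosylceramide, rose by 3.68 on the log2 scale in DN:HOM livers (SE 0.49, edgeR adjusted p = 1.6e-08), although from 0.121 ± 0.0813 to only 1.61 ± 0.338 CPM. With all 48 livers it was 2.08. The DN:WT level of Ugt8a lay below the limits for a count of 0 (0.136 to 0.604 CPM over the 48 livers). The fitted value thus gives the direction of the rise and not its size. A4galt, the globotriaosylceramide synthase, rose in DN:HOM livers from 0.267 ± 0.111 to 2.18 ± 0.49 CPM (edgeR adjusted p = 4.3e-11; log2 fold change 1.88 with 48 livers) and by 1.02 in KO:HOM livers, where the call was lost with all 48 (edgeR adjusted p = 0.019 and 0.17). The DN:WT level of A4galt lay within those limits. St3gal5, which makes the ganglioside GM3, fell in both, by 0.84 in DN:HOM (edgeR adjusted p = 0.012) and by 0.87 in KO:HOM livers (edgeR adjusted p = 0.017). Its spread was large, 328 ± 154 CPM in KO:WT livers beside a mean of 180 CPM in KO:HOM livers. Gltp, a glycolipid transfer protein, rose in KO:HOM livers from 3.55 ± 1.15 to 11.5 ± 4.63 CPM (log2 fold change 1.70, edgeR adjusted p = 3.7e-05). B3galt4, a ganglioside galactosyltransferase, rose there by 1.62 (edgeR adjusted p = 0.0073) at levels under 1 CPM.

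The sphingosine-1-phosphate list had 6 rises and 5 falls among 15 genes in DN:HOM livers (4 and 5 with all 48) and 3 rises and 1 fall in KO:HOM livers (1 and 1 with all 48), or 73.3% and 26.7% beside 59.1% and 19.4% of all genes (60% and 13.3% beside 48% and 12.9% with all 48). The kinases that make sphingosine-1-phosphate moved in opposite directions in DN:HOM livers. Sphk1 rose from 0.228 ± 0.153 to 2.93 ± 0.298 CPM (log2 fold change 3.65, edgeR adjusted p = 6.1e-10; 2.32 with 48 livers), while Sphk2 fell from 67.4 ± 12.2 to 38.9 ± 3.64 CPM (-0.78, edgeR adjusted p = 3.5e-10; -0.55 with 48 livers). The DN:WT level of Sphk1 lay within the limits for a count of 0 (0.136 to 0.604 CPM over the 48 livers), so the size of its rise is not fixed. The exporter Spns2 fell by 0.90 (edgeR adjusted p = 1.1e-08) and the receptor S1pr1 by 0.81 (edgeR adjusted p = 1.5e-05), and with all 48 livers both still passed. Sgpp1, a sphingosine-1-phosphate phosphatase, fell by 0.27 in KO:HOM livers (edgeR adjusted p = 0.006).

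The remaining sphingomyelin genes had the smallest share of calls in DN:HOM livers, with 1 rise and 3 falls among 8, and they had 2 rises in KO:HOM livers, the same with all 48. The shares were 50% and 25%, beside 59.1% and 19.4% of all genes (48% and 12.9% with all 48). The rise in DN:HOM livers was Smpdl3b, a membrane-anchored phosphodiesterase related to acid sphingomyelinase, from 0.588 ± 0.27 to 3.91 ± 1.64 CPM (log2 fold change 2.73, edgeR adjusted p = 1.3e-06; 2.01 with 48 livers). It also rose in KO:HOM livers, by 2.20 (edgeR adjusted p = 1.5e-04).

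**Figure D4:**
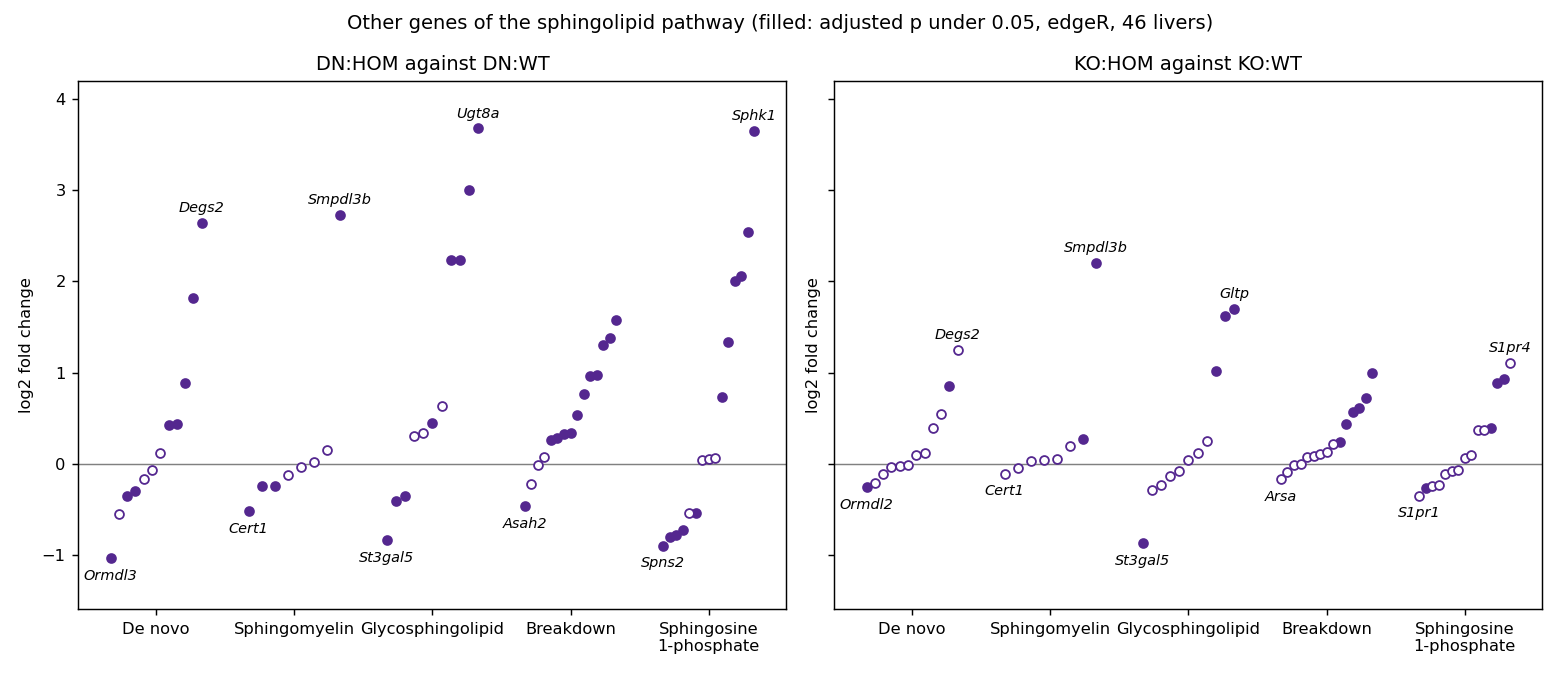
Log2 fold change of the 61 other sphingolipid genes tested, by list, in DN:HOM against DN:WT (left) and KO:HOM against KO:WT (right), for 46 livers. Filled points passed an edgeR adjusted p of 0.05, and names mark the lowest gene of each list and, outside the breakdown list, the highest. In the knock-in Ormdl3 (-1.04) is lowest. The points of Ugt8a (3.68) and Sphk1 (3.65) stand highest, but their DN:WT levels are too near 0 to fix their size or order.

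Markers of liver cell types moved with genotype. Their counts stand beside 59.1% of all genes passing in DN:HOM (48% with all 48 livers), 19.4% in KO:HOM (12.9%) and 2.3% in DN:HET livers (0.25%). The summed level of 7 hepatocyte genes was 62094 to 78630 CPM in DN:WT and 29575 to 40839 CPM in DN:HOM livers, and 6 of the 7 fell (5 with all 48), with Alb at -1.14. The summed 6 Kupffer cell markers were at 137 to 270 CPM in DN:WT and 17.8 to 27.7 CPM in DN:HOM livers, where 5 of 6 fell and 1, Adgre1, rose (5 falls and no rise with all 48). The 6 recruited macrophage markers went from 17.7 to 40.8 CPM in DN:WT to 337 to 600 CPM in DN:HOM livers, and all 6 rose, with all 48 too. The 7 stellate cell genes were at 72.5 to 129 and 493 to 698 CPM, with 6 of 7 risen, with all 48 too. The 4 cholangiocyte genes were at 6.54 to 10.2 and 47 to 62.7 CPM, all 4 risen (with all 48 too), beside 4.06 to 12 CPM in KO:WT and 5.37 to 12.2 CPM in KO:HOM livers, where 0 of 4 passed. In KO:HOM livers the recruited macrophage sum was 59.1 to 208 CPM against 13.6 to 43.1 CPM in KO:WT, and 5 of 6 rose (4 with all 48). The hepatocyte sum was 54044 to 76895 CPM there against 73878 to 98240 CPM, and 6 of 7 fell (3 of 7 with all 48). All 5 T cell genes rose in KO:HOM livers (also with all 48), with a sum of 5.29 to 22 CPM against 1.86 to 4.77 CPM in KO:WT and no overlap. There too 4 of 7 stellate cell genes rose (92.7 to 242 against 61 to 206 CPM; 0 of 7 with all 48), as did 3 of 4 neutrophil genes tested (4.16 to 28.2 against 1.65 to 5.92 CPM; 1 of 4 with all 48), and 3 of 6 Kupffer cell markers fell (34.8 to 96.9 against 78.8 to 312 CPM; 2 of 6 with all 48). Of 5 endothelial genes 1 rose and 1 fell there, with all 48 too. These shifts stand beside the rise of Smpd3 in KO:HOM livers. In DN:HET livers 4 of 6 recruited macrophage markers (28.6 to 142 CPM), 4 of 5 T cell genes (2.52 to 23.5 CPM), 2 of 6 Kupffer cell markers (142 to 640 CPM) and 1 of 4 neutrophil genes rose, of which 2 of 5 T cell genes passed with all 48 livers and none of the others. Ly6g of the neutrophil list was at 0 in every liver of DN:WT, DN:HET, KO:WT and KO:HET among the 46 livers, no other marker was at 0 in a whole group, and the hepatocyte sum was the highest in every group. Smaller sums of neutrophil genes (29.5 to 79.9 CPM in DN:HOM against 3.34 to 6.47 CPM in DN:WT), T cell genes (3.35 to 5.91 against 1.81 to 3.78), B cell genes (2.32 to 4.28 against 2.85 to 6.87) and endothelial genes (61.5 to 111 against 91.3 to 126) also differed or overlapped as these ranges show. Of these, 4 of 4 neutrophil genes tested (3 with all 48) and 3 of 5 T cell genes (1 with all 48) rose in DN:HOM livers, 1 of 4 B cell genes fell (0 with all 48), and of 5 endothelial genes 1 rose and 3 fell (0 and 3 with all 48). The liver labelled DN:WT animal 10 had a recruited macrophage sum of 565 CPM and the one labelled DN:HOM animal 12 of 22.9 CPM. The part of these cell types in the changes of the sphingolipid genes was not tested.

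**Figure D5:**
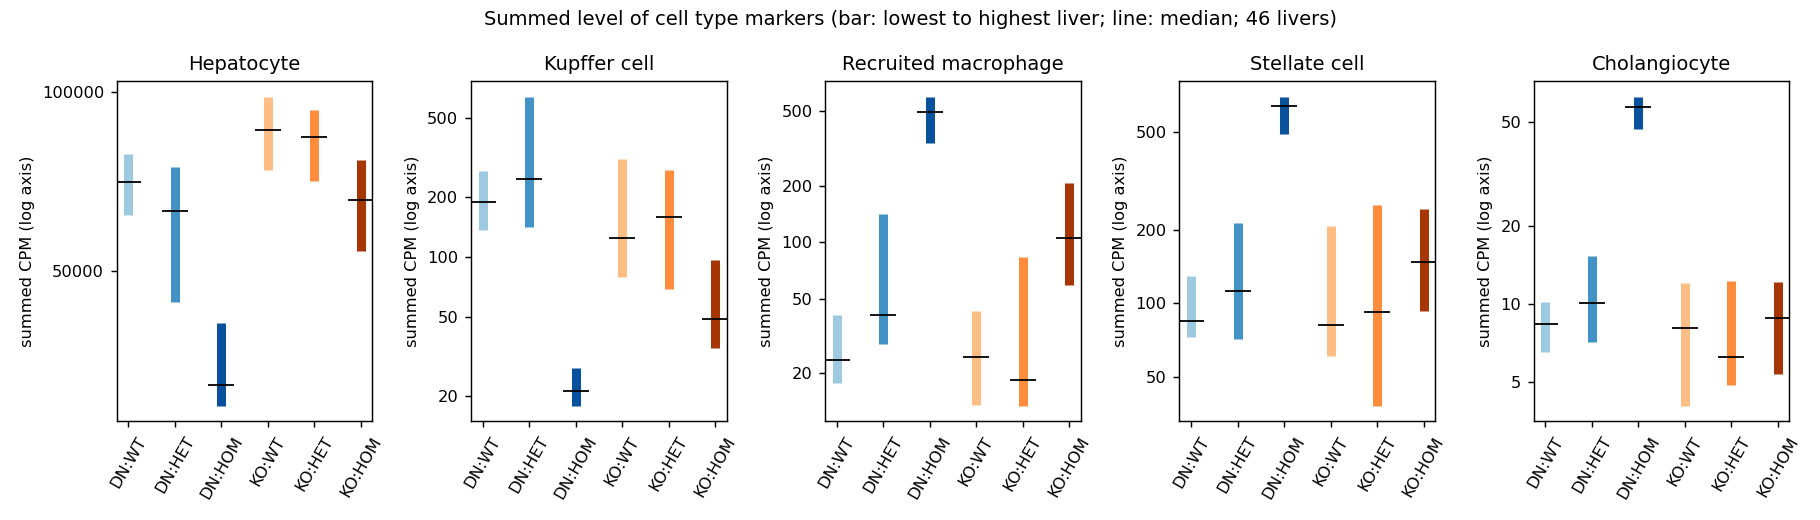
Summed CPM of marker genes of 5 liver cell types in the 46 livers, on log axes, by group. Bars run from the lowest to the highest liver and the line is the median. In DN:HOM livers the hepatocyte and Kupffer cell sums lie below DN:WT and the recruited macrophage, stellate and cholangiocyte sums above it.

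The genes most like Serinc5 and Smpd3 across livers, after removing the group means, were found among 11715 genes over 46 livers that share their libraries' scaling. For Serinc5 they were Actn1 (Pearson r = 0.61), which encodes an actin crosslinker, Clu (0.60), the secreted chaperone clusterin, and Dsp (0.58), the desmosomal protein desmoplakin. For Smpd3 they were Ifi27l2b (0.81), Aldh1a7 (0.80), a cytosolic aldehyde dehydrogenase, and Themis (0.79), a T cell signalling gene. Leaving out the 2 livers whose level of the gene was farthest from the median of all 46 gave 0.63, 0.58 and 0.56 for Serinc5 and 0.81, 0.80 and 0.77 for Smpd3. Those livers were picked by level and not by their deviation from the group mean. This step therefore cannot tell whether single livers carry the correlation within groups. The likeness is within groups only. In DN:HOM against DN:WT livers Aldh1a7 fell by 0.69 on the log2 scale while Smpd3 rose. Ifi27l2b rose in DN:HOM (log2 fold change 1.95, edgeR adjusted p = 3.8e-05) and in KO:HOM livers (1.30, edgeR adjusted p = 0.0093). Themis rose in KO:HOM livers (1.60, edgeR adjusted p = 0.0052) and was at -0.59 in DN:HOM livers (edgeR adjusted p = 0.26).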

How the data were processed

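Liver polyA RNA of 48 mice was sequenced with a stranded kit. The authors aligned the reads to GRCm39 with STAR 2.5.0a, per the labels, and deposited raw counts of reads per gene (unnormalized), unstranded and by strand. The counts of the sense strand were used, whose total exceeded the other strand by 6.97 to 8.62 times. A median of 26.6% of reads per liver named no gene and was left out. Of the gene identifiers, 54749 of 55416 (98.8%) were found in GENCODE vM39, which gave symbols, exon lengths and the GRCm39 promoters.

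Groups came from the genotype label. The labels hold nothing that pairs the mice, and p-values measure the spread between mice. The paper states that the studies of both lines were split into 2 cohorts, and the labels name no cohort. The main test was an edgeR 4.0.16 quasi-likelihood test (R 4.3.3) with TMM scaling, filterByExpr and a mean for each of 6 groups over 46 livers, adjusted over 15711 genes. The 2 livers left out were found by matching the counts to the study's source data for 8 genes in the knock-in livers, of which 7 matched within 0.01%. CPM use the TMM library size, a kilobase is of exon merged over all annotated transcripts, and 95% intervals are normal, from the SE. The 9 alternatives were all 48 livers, DESeq2 1.42.0, RLE, upper-quartile and library-size scaling, no filter, unstranded counts, each study alone, and no livers under 10000000 reads. On data simulated for DN:HOM with 15218 genes, edgeR called 49% of 100 genes changed by 0.5 and 100% of 100 changed by 1 on the log2 scale. The simulation gave every gene the same spread and changed no other genes, while 59.1% of all genes passed in the real comparison. These shares are therefore not the power of the real test.

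The genes, lists, markers and tests were chosen with earlier results of these data known. The genes named in the text are the 10 genes, the 5 largest rises and 5 largest falls of the other pathway lists past the threshold in each homozygous comparison, the 3 genes most like Serinc5 and Smpd3, marker genes and Nr1h3; an item this rule selects is not reported here.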

Additional observations from a re-analysis of the deposited data

Results flagged for a closer look

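In 72 groups of livers examined for a single value set apart, by gap over range on the log2 scale (Dixon's test), 11 stood out, while chance gives about 1 in 20. Of these 5 belong to the livers labelled DN:WT animal 10 and DN:HOM animal 12 in the set of all 48 livers. Animal 10 stood apart in its labelled group for Sptlc2 (0.70) and Serinc5 (0.79), and animal 12 for Sptlc1 (0.69), Serinc5 (0.69) and Cers2 (0.88). The others were KO:HOM animal 17 for Sptlc1 (0.61), DN:WT animal 7 (0.61) and KO:WT animal 23 (0.69) for Sptlc2, KO:HET animal 9 for Serinc5 (0.54) and Degs1 (0.69), and DN:HET animal 14 for Cers6 (0.57). KO:HOM animal 17 is a liver with fewer than 10000000 reads, and KO:WT animal 23 is also the KO:WT liver highest in Smpd3, at 25.9 CPM.

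The homozygous effect differed between the knock-in and the knockout by an interaction test for Sptlc2 (1.04 on the log2 scale), Serinc5 (1.19), Cers2 (-0.62), Degs1 (0.26) and Ugcg (0.35). With all 48 livers the difference passed for Sptlc2 and Serinc5.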

How the results depend on the processing

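No paired analysis was possible because the animal numbers are unique within each study, and a number found in both studies names different mice. Of the 396 values of single genes under the alternatives, 370 kept their direction and their side of the threshold, 7 lost a call, 3 gained one and 16 changed direction. Unstranded counts changed none of 45. For DN:HOM against DN:WT, Sgms1 turned to 0.01 with DESeq2 and with RLE, 0.07 with upper-quartile, 0.42 with library size alone and 0.02 with each study alone, and Sptlc1 turned to 0.13 with library size alone. Library size alone shifted the median of all genes by 0.42 there, 0.09 in KO:HOM and 0.31 in the difference, and it turned Degs1 (0.04) and Ugcg (0.01) in DN:HET, Sptlc1 (0.03), Sptlc2 (0.05), Cers2 (0.03) and Ugcg (0.05) in KO:HOM and Sptlc1 (0.09) in the difference. Of the values that turned, only Sptlc1 in DN:HOM had passed the test, and only Sgms1 at 0.42 passed after turning (edgeR adjusted p = 0.0038). All 48 livers turned Serinc5 (-0.20) and Smpd3 (-0.16) in DN:HET and Smpd3 (-0.25) in the difference. The count of genes past the threshold in DN:HET was 361, against 39 with all 48 livers, 617 with DESeq2 and 239 with each study alone. In KO:HOM it was 3048 against 2016 with all 48 livers, in KO:HET 3 against 10 with DESeq2 and 8 without the filter, and in the difference 5456 against 1636 with all 48 livers. In DN:HOM 9 of the 10 genes passed without the filter, against 8 of 9 (Sptlc3 added). Of the 9 genes 1 passed in KO:HOM, against 2 with library size alone (Serinc5 added) and 2 without the filter (Sptlc3 added), and in the difference 5 passed against 2 with all 48 livers. Without the livers under 10000000 reads the difference of Sptlc1 passed and that of Ugcg did not. The difference of Ugcg also lost its call without the filter (edgeR adjusted p = 0.058), where that of Sptlc3 passed, and that of Sgms1 gained one with library size alone (0.51, edgeR adjusted p = 0.016), where 6 of 9 passed. The cause was not tested. Depth limits Sptlc3 most, and Smpd3 had as few as 31 reads in a liver.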
